A study of Schizosaccharomyces pombe with 8 samples.

Results

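Ribosome assembly and RNA polymerase I genes were read as a module of 53 fission yeast (Schizosaccharomyces pombe) genes, out of 2896 genes with a named probe set on the arrays. They were taken by symbol and not by a cutoff on their values, but earlier results of these data were known when they were chosen. The symbols covered RNA polymerase I subunits and initiation factors, and the proteins of small nucleolar ribonucleoprotein particles (snoRNPs). They also covered processing factors named utp, nop, rrp, rlp or mak, the dbp helicases, and single named factors such as bms1, brx1 and nog1. Each gene had 1 probe set, so the 53 probe sets stood for 53 genes. RNA polymerase I transcribes the ribosomal DNA into the long precursor of the ribosomal RNAs. In the nucleolus snoRNPs then guide chemical modification of that precursor, large protein complexes fold and cut it, helicases remodel it, and the exosome trims its ends, until the small and the large ribosomal subunit can leave the nucleus. The genes of this pathway are well known in yeasts for being adjusted together with growth and stress, and most roles given here are known best from the budding yeast Saccharomyces cerevisiae.

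The study hybridised RNA of 2 strains, called opi10- and opi10+ in the labels, to Affymetrix yeast arrays. Each strain was measured at 4 stages: at mid-log phase in Edinburgh Minimal Medium at 30C (called before), at the end of 1 h at 43C, and when it had recovered at 30C for 1 h or for 3 h. Every strain and stage had a single array, 8 in all. The opi10 gene is related to human Hikeshi, a factor that carries HSP70 chaperones into the nucleus under heat. The labels do not say how opi10- was made or whether arrays came from separate cultures, so p-values here measure only the spread between these arrays. That spread is what an additive fit of strain and stage leaves over. A response that differed between the strains therefore counts as spread in these p-values. No probe set was annotated to opi10 (0 found by symbol or synonym), so its loss could not be checked on the arrays.

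A test of a condition compares 2 arrays, 1 per strain, with 2 arrays, in 1 limma fit of log2(signal + 16) over all 2892 tested genes. A gene is said to have risen or fallen where its Benjamini-Hochberg adjusted p lay below 0.05. All 53 members passed the filter on dim probe sets. Their mean signals ran from 139 (rrn5) to 5934 (cbf5) with a median of 1439, against 921 for all tested genes, and the 96 S. cerevisiae probe sets of the same gene names read 0.34 to 19.7. At 43C the deposited signals were lower over all S. pombe probe sets, with an array median of 517 in opi10- and 492 in opi10+, against 922 in opi10- and 1004 in opi10+ before heat. The ratio of 3' to 5' signal of the act1 control, a sign of RNA quality, was also highest at 43C, at 1.91 in opi10- and 1.84 in opi10+, against 1.42 in opi10- and 1.57 in opi10+ before heat. Its part in the results was not tested. Signals below were quantile normalised over S. pombe probe sets, unless the deposited scale is named, and for the changes that involve 43C the deposited scale is set beside it.

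For 4 of the 53 symbols, the gene behind the probe set is not known here as a ribosome assembly gene. The probe set named drs1 belongs to the locus SPCC1223.07C, the aspartate-tRNA ligase gene of fission yeast. The helicase called DRS1 in budding yeast is ddx27 in S. pombe, which the symbols did not pick. The gene under mak10 is naa35, which codes for a subunit of an N-terminal acetyltransferase, and rlp1 is likewise set apart. The probe set named rrp12 belongs to a locus with no symbol in the newer gene table, where another locus is rrp12. These 4 are kept in all counts over the 53 members and were set apart after their values had been seen, which leaves 49.

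Over the 4 stages, peaks at 1 h of recovery and lows at 3 h were common among the members. In both strains 29 of the 53 members (54.7%) had their highest normalised signal at 1 h of recovery, against 15.9% of all tested genes. The lowest signal stood at 3 h of recovery in both strains for 36 members (67.9%), against 14.6% of all tested genes. Both held for 20 members (37.7%), against 3.01% of all tested genes. No member was lowest at 1 h or highest at 3 h in both strains. On the deposited scale 36 members (67.9%) were highest at 1 h of recovery, against 21.5% of all tested genes, and 14 (26.4%) were lowest at 3 h, against 2.8%. Both held there for 12 members (22.6%), against 1.04% of all tested genes. On that scale 24 members (45.3%) were lowest at 43C, below the 74.4% of all tested genes.

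**Figure D1:**
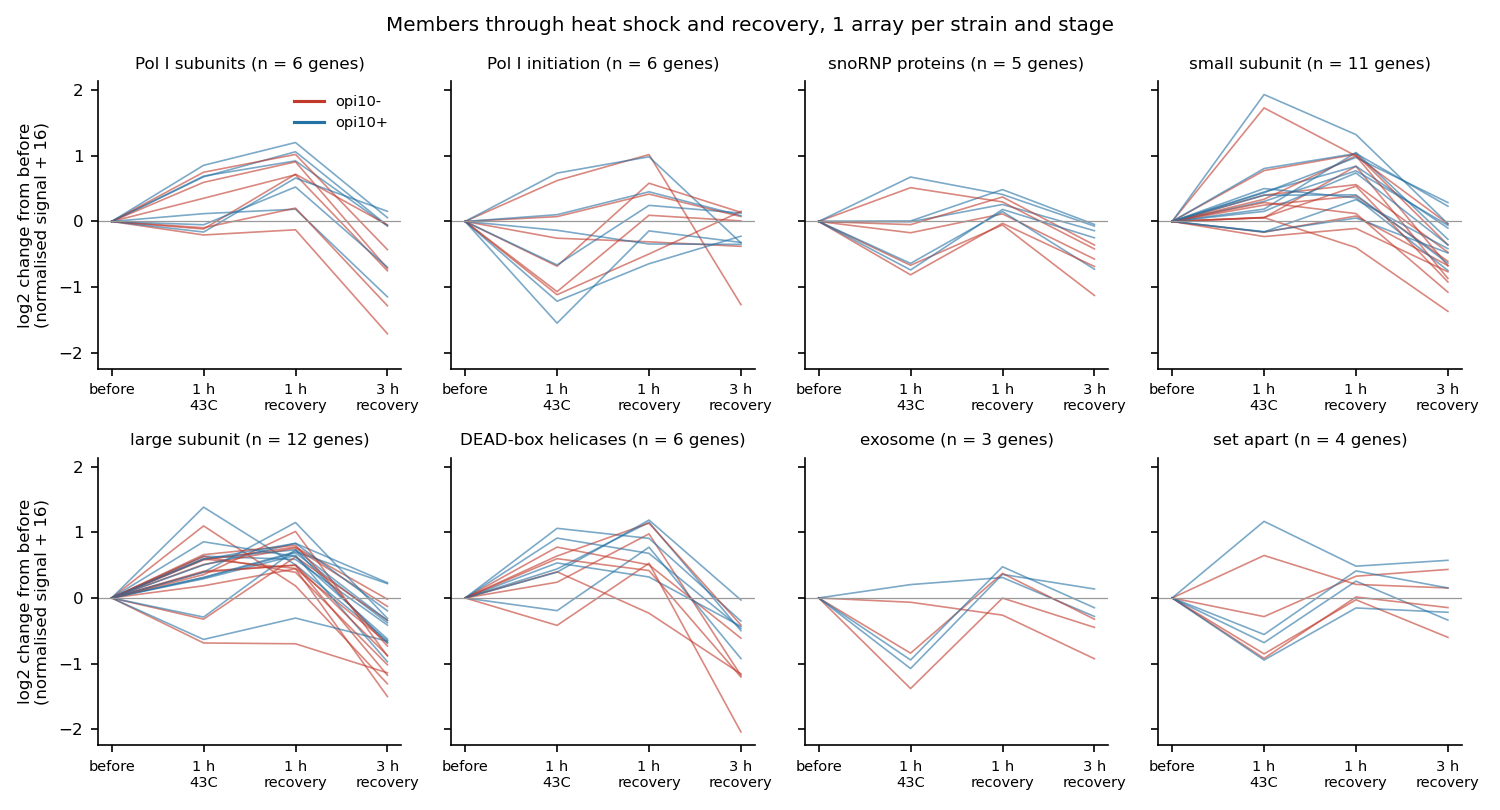
Change of each member from the same strain before heat, as log2 of the normalised signal plus 16 (vertical axis), over the 4 stages (horizontal axis), with 1 panel per role and 1 line per gene and strain (opi10- red, opi10+ blue). In both strains 29 of the 53 members are highest at 1 h of recovery and 36 are lowest at 3 h, while rrp41, rrp46, rrn10 and rrn11 dip at 43C and bms1, dbp7, dbp8 and has1 peak there.

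At 43C the members went in both directions on the normalised scale and mostly down on the deposited scale. On the normalised scale 21 of 53 members rose and 12 fell, while 32.8% of all tested genes rose and 39.8% fell, so that the share of risen members (39.6%) was near that of all genes. The members' median change was 0.28 log2 against -0.07 over all tested genes. In the deposited values 2 rose and 30 fell, while 11.2% of all tested genes rose and 73.7% fell. bms1, a GTPase that acts in the small subunit precursor, read 1160, 3888, 2335 and 721 in opi10- and 1075, 4152, 2714 and 1048 in opi10+ (before, 43C, 1 h and 3 h of recovery). Both 43C arrays stood above all 6 others. bms1 rose 3.56-fold at 43C (log2 change 1.83 ± 0.15, standard error; adjusted p = 7.93e-05), and by 1.22 log2 on the deposited scale.

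nop12, a factor of the large subunit pathway, read 1034, 2232, 1177 and 408 in opi10- and 857, 2263, 1224 and 540 in opi10+. It too was highest on both 43C arrays, and rose by 1.24 ± 0.15 log2 at 43C (0.60 deposited). The helicase gene dbp7 rose by 0.92 ± 0.11 log2 on the normalised scale and was not called on the deposited scale (0.04). On the normalised scale 7 of 12 factors of the large subunit rose and 2 fell. Of the factors of the small subunit 5 of 11 rose there and none fell, while 32.8% of all tested genes rose and 39.8% fell. On the deposited scale utp4, utp5, utp13, utp15, utp23, imp3 and nop14 of the small subunit fell, and only bms1 rose. Of the large subunit factors ebp2, nop52 and rrp8 fell on that scale and only nop12 rose. There 11.2% of all tested genes rose and 73.7% fell. mak10, one of the 4 genes set apart, was the remaining member among the 4 largest rises, with 0.91 ± 0.13 log2 (-0.0040 deposited, not called).

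Of the 6 polymerase I subunit genes among the members 3 rose at 43C and none fell on the normalised scale. Of the 6 initiation genes 1 rose and 3 fell. The difference between these groups was not tested. nuc1, which codes for the largest subunit, read 2817, 3602, 4621 and 1667 in opi10- and 2315, 3747, 4404 and 2204 in opi10+. rpa2, which codes for the second largest subunit, read 1245, 1890, 2352 and 751 in opi10- and 1110, 1787, 2335 and 1061 in opi10+. rpa12, the gene of a small subunit involved in transcript cleavage, read 1271, 2148, 2595 and 939 in opi10- and 1112, 2026, 2582 and 1158 in opi10+. All 3 were above their starting signal at 43C in both strains, and rose by 0.52 ± 0.16, 0.64 ± 0.16 and 0.80 ± 0.13 log2. Their changes on the deposited scale were -0.12, 0.001 and 0.18 log2 and were not called. The other 3 subunit genes, rpa34, rpa43 and rpa49, had differences of -0.04, -0.14 and -0.07 log2 and were not called, whereas on the deposited scale they fell by 0.83, 0.78 and 0.85 log2. rrn3, whose product brings the polymerase to the promoter, rose by 0.68 ± 0.23 log2 with a limma adjusted p of 0.0356 (a change of 0.05 log2 on the deposited scale, not called).

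The 3 initiation genes that fell were rrn11, rrn10 and rrn6. rrn11, a core factor gene, read 411, 187, 439 and 413 in opi10- and 502, 161, 453 and 399 in opi10+. rrn10, a gene of the upstream activating factor, read 397, 175, 277 and 443 in opi10- and 438, 179, 274 and 372 in opi10+. Both genes were lowest at 43C in both strains. rrn11 fell by 1.31 ± 0.12 log2, which is 2.48-fold, and rrn10 fell by 1.17 ± 0.11 log2. rrn6, another core factor gene, fell by 0.67 ± 0.11 log2. In the deposited values these falls were 2.53 log2 for rrn11, 2.42 for rrn10 and 1.75 for rrn6. rrn5 (-0.20) and rrn7 (0.09) were not called on the normalised scale and fell on the deposited scale (-1.24 and -0.93).

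In the exosome, rrp41 read 1792, 678, 1789 and 1309 in opi10- and 1392, 652, 1789 and 1531 in opi10+. In each strain the 43C array was the lowest of the 4. rrp41 fell by 1.23 ± 0.14 log2 (-2.24 deposited) and rrp46, a gene of the same ring, fell by 0.89 ± 0.09 log2 (-2.16 deposited). rrp6, the gene of a nuclear exonuclease, stood at 0.07 ± 0.16 log2 and was not called, but fell on the deposited scale (-0.93). Of the snoRNP genes, nop10 fell by 0.78 ± 0.12 and gar1 by 0.65 ± 0.12 log2 (-1.44 and -1.32 deposited). nhp2, whose product sits in the same H/ACA particle, rose by 0.60 ± 0.10 log2 (0.13 deposited, not called). The pseudouridine synthase gene cbf5 (-0.02) and the methyltransferase gene fib1 (-0.09) were not called, and fell on the deposited scale (-0.47 and -0.52). Of the genes set apart, drs1 fell by 0.93 ± 0.08 log2 (-1.55 deposited), among the 4 largest falls. The helicase gene ddx27, not a member, rose by 0.57 ± 0.14 log2 on the normalised scale, and its deposited change is not given here.

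Whether a member was called as risen at 43C depended on the scale. On the deposited scale, where the median of all tested genes was -0.91 log2, only bms1 and nop12 rose among the members, and the median of all 53 was -0.47. All 12 falls held on both scales, 18 of the 21 rises were no longer called, and utp15, a gene of the small subunit pathway, was called in opposite directions. On both scales the members' median lay above that of all tested genes. Without the opi10- 43C array, or without the opi10+ array before heat, 11 members rose on the normalised scale. The calls of nuc1 (adjusted p up to 0.134), rpa2 (up to 0.0683) and rrn3 (up to 0.179) were lost without either of those 2 arrays, and those of nuc1 and rrn3 also without the opi10+ 43C array (0.0861 and 0.0734). That of rrn3 was lost too without either 1 h array (0.0503).

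**Figure D2:**
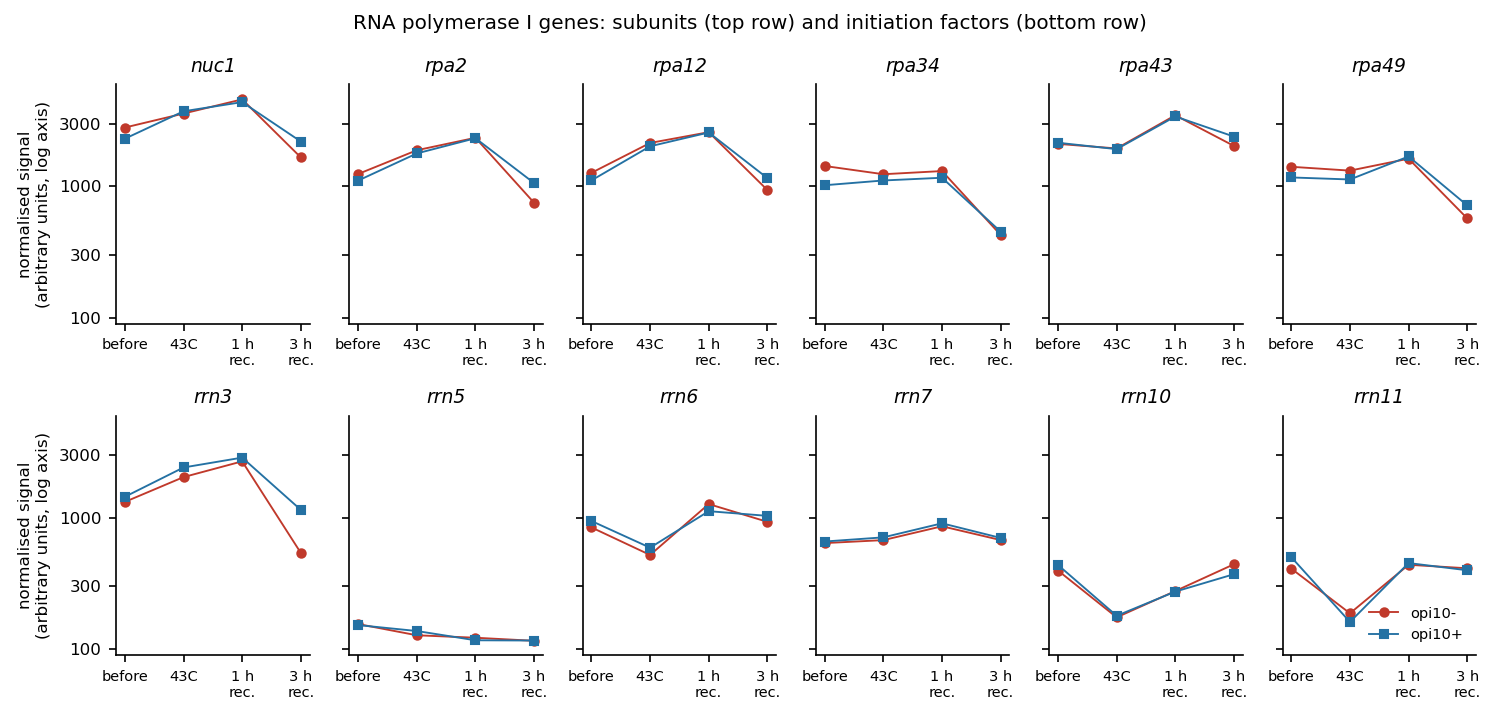
Normalised signal (vertical log axis, arbitrary units) of the 6 RNA polymerase I subunit genes (top row) and the 6 initiation genes (bottom row) at the 4 stages, with 1 array per point, opi10- as red circles and opi10+ as blue squares. The subunits end at 3 h near or below where they began, rrn3 ends at 541 in opi10- and 1153 in opi10+, and rrn10 and rrn11 dip at 43C.

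At 1 h of recovery, rrp41 and rrp46 of the exosome and the initiation genes rrn11 and rrn6 had the largest rises over the level at 43C. Against 43C, 23 of 53 members rose and 3 fell on the normalised scale, while 35.1% of all tested genes rose and 30.3% fell. The members' median change was 0.31 log2, against 0.03 over all tested genes. The 4 largest rises were those of rrp41 (1.41 ± 0.14 log2), rrp46 (1.32 ± 0.09), rrn11 (1.28 ± 0.12) and rrn6 (1.09 ± 0.11). For rrp41 the rise was 1.38 log2 in opi10- and 1.44 log2 in opi10+. The same 4 rose on the deposited scale by 2.37 (rrp41), 2.63 (rrp46), 2.57 (rrn11) and 2.19 log2 (rrn6). This comparison shares the 43C arrays with the one before it, so the 2 are not independent.

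The 3 that fell against 43C were nop12 (-0.90 ± 0.15 log2), bms1 (-0.67 ± 0.15) and mak10 (-0.56 ± 0.13). Among the polymerase subunits rpa43 (0.83 ± 0.10) and rpa49 (0.44 ± 0.15) rose, and nuc1 (0.30), rpa2 (0.35), rpa12 (0.31) and rpa34 (0.07) were not called. rrn10 (0.60) and rrn7 (0.35) rose, and rrn3 (0.32) and rrn5 (-0.13) were not called. Of the snoRNP genes nop10 (0.85), gar1 (0.70) and cbf5 (0.45) rose, while fib1 (0.28) and nhp2 (-0.24) were not called. On the deposited scale 49 members rose and none fell, with 78.6% of all tested genes risen and 7.3% fallen, and mak10 rose by 0.43 log2. There bms1 (-0.14), nop12 (-0.24), nhp2 (0.13) and has1 (0.32) were not called, and all 12 polymerase I genes rose by 0.83 (rpa12) to 2.57 log2 (rrn11). Without either array before heat 5 members fell. Without the opi10- 1 h array 1 member fell, and bms1 (adjusted p = 0.0558), mak10 (0.055) and cbf5 (0.0537) were no longer called. The calls of mak10 and cbf5 were lost without the opi10+ 43C array as well (0.0688 and 0.0506), those of mak10 and rrn7 without the opi10+ 1 h array (0.0628 and 0.0532), and that of rpa49 without any of these 3 arrays (up to 0.22).

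Against the level before heat, most of the module was raised at 1 h of recovery. Of 53 members 32 rose and 3 fell, while 25.6% of all tested genes rose and 27.3% fell, and the members' median change was 0.51 log2 against -0.005 over all tested genes. At least 2-fold rises were made by 7 members, against 3.46% of all tested genes. The counts were almost the same on the deposited scale, with 32 risen (24.8% of all tested genes), 2 fallen (23.2%) and a median of 0.47 log2, and 31 members rose on both scales.

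The rises covered both subunit pathways. dbp10, a helicase gene of the large subunit pathway, read 1121, 1755, 2490 and 838 in opi10- and 1120, 1476, 2571 and 1095 in opi10+. rlp24, whose product holds the place of a ribosomal protein in the large subunit precursor, read 1649, 2114, 3346 and 886 in opi10- and 1465, 1928, 3270 and 1177 in opi10+. For both genes the 1 h arrays were the highest and the 3 h arrays the lowest in each strain. dbp10 rose by 1.16 ± 0.14 log2 (2.24-fold; adjusted p = 0.00136), bms1 by 1.16 ± 0.15, rpa12 by 1.11 ± 0.13 and rlp24 by 1.08 ± 0.15. The other 3 members at 2-fold or more, named because they complete that count, were dbp2 (1.07), utp10 (1.03) and rrn3 (1.00).

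By role, 10 of 12 large subunit factors, 7 of 11 small subunit factors, 4 of 6 polymerase subunits and 4 of 6 helicases rose. The 4 risen polymerase subunits were rpa12, rpa2 (0.99 ± 0.16), nuc1 (0.82 ± 0.16) and rpa43 (0.69 ± 0.10), while rpa49 (0.36) and rpa34 (0.03) were not called. Among the initiation genes rrn3, rrn7 (0.43 ± 0.07) and rrn6 (0.41 ± 0.11) rose and rrn11 (-0.02) was not called. Of the snoRNP genes cbf5 (0.43) and nhp2 (0.35) rose, while fib1 (0.19), nop10 (0.08) and gar1 (0.05) were not called.

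The 3 members that fell at 1 h were rrn10 (-0.57 ± 0.11 log2), nop52 (-0.50 ± 0.14) and rrn5 (-0.33 ± 0.08). rrn5, also of the upstream activating factor, was the dimmest member, at 155, 127, 122 and 116 in opi10- and 152, 137, 117 and 116 in opi10+. Its fall was not called on the deposited scale. Without 1 of the 2 arrays at 1 h, 17 members (without opi10-) or 20 members (without opi10+) rose, and only 1 fell. Further calls went in fits that left out 1 array. With the opi10- 1 h array out, these were nuc1 (then at 0.75 log2), rrn3 (0.81), rrn6 (0.24), nop52 (-0.40) and rrn5 (-0.37). Those of cbf5 and nhp2 also went there (0.42 and 0.33). They went as well with the opi10+ 1 h array out (0.43 and 0.38), or the before-heat opi10+ array (0.35 and 0.25). Dropping that before-heat array removed the call of rrn3 too (0.83). Dropping the before-heat opi10- array removed those of rrn6 (0.36), nop52 (-0.35) and rrn5 (-0.31). Dropping the opi10+ 1 h array removed those of nop52 (-0.61) and rrn5 (-0.29). Such a loss does not show that the array left out carried the change. In the full fit nop52 stood at -0.50, rrn5 at -0.33 and nhp2 at 0.35. Some estimates therefore grew while the call went.

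On the normalised scale the members' largest median change, and the one most of them shared, came between 1 h and 3 h of recovery. The change from 43C to 1 h was larger on the deposited scale (49 risen, median 1.03 log2). At 3 h against 1 h, of 53 members 44 fell and 1 rose, against 23.5% and 23.4% of all 2892 tested genes. The members' median change was -0.98 log2, against -0.01 over all tested genes. Falls of at least 2-fold were made by 26 members (3.63% of all tested genes did so). Of the 20 largest falls among all tested genes 8 were members, and of the 50 largest falls 17. This fall shares the 1 h arrays with the rises and peaks at 1 h described above, so they are not independent.

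The helicase gene dbp3 had the largest fall of all tested genes. It read 1814, 1354, 2626 and 428 in opi10- and 1507, 1316, 2587 and 787 in opi10+. dbp2, another DEAD-box helicase gene, read 4018, 4747, 7923 and 1762 in opi10- and 3638, 4948, 8111 and 2571 in opi10+. In each strain both genes were highest at 1 h and lowest at 3 h. dbp3 fell 4.39-fold (-2.13 ± 0.25 log2; adjusted p = 0.00152) and dbp2 fell 3.74-fold (-1.90 ± 0.16; adjusted p = 0.00101), which placed dbp2 second among all tested genes.

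rrn3 read 1326, 2050, 2704 and 541 in opi10- and 1451, 2428, 2888 and 1153 in opi10+. Its 3 h signal was the lowest of each strain. rrn3 fell 3.48-fold (-1.80 ± 0.23), the fifth largest fall. ebp2, a large subunit factor gene, read 1418, 1615, 1935 and 490 in opi10- and 1217, 1494, 1919 and 612 in opi10+, and fell 3.45-fold (-1.78 ± 0.13), next after rrn3.

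The fall took in every polymerase I subunit gene among the members. rpa34 read 1433, 1240, 1311 and 427 in opi10- and 1022, 1111, 1166 and 452 in opi10+, and rpa49 read 1413, 1321, 1630 and 571 in opi10- and 1172, 1131, 1694 and 717 in opi10+. Both had their lowest signal on the 3 h array of each strain. rpa34 fell by 1.46 ± 0.13, rpa2 by 1.38 ± 0.16, rpa49 by 1.36 ± 0.15, rpa12 by 1.30 ± 0.13 and nuc1 by 1.23 ± 0.16 log2. rpa43 fell least, by 0.64 ± 0.10 log2, with signals of 2114, 1951, 3494 and 2039 in opi10- and 2157, 1927, 3421 and 2402 in opi10+ that peaked at 1 h and were near the starting signal at 3 h.

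All 11 small subunit factors, all 5 snoRNP genes and all 6 helicases fell, as did 11 of 12 large subunit factors. The small subunit factors ran from -1.52 (utp4 and bms1) to -0.60 (imp3) log2. Large subunit factors ran from -1.78 (ebp2) to -0.40 (nop52, not called). The snoRNP genes ran from -0.98 to -0.54 log2, with gar1 at -0.98, cbf5 at -0.63, nhp2 at -0.60, nop10 at -0.55 and fib1 at -0.54 log2. cbf5 read 5803, 5609, 7519 and 4520 in opi10- and 5346, 5373, 7492 and 5179 in opi10+, highest at 1 h and lowest at 3 h in each strain.

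The initiation genes moved in both directions. Besides rrn3 only rrn7 fell (-0.35 ± 0.07 log2), rrn10 rose by 0.53 ± 0.11, and rrn6 (-0.28), rrn11 (-0.13) and rrn5 (-0.04) were not called. In the exosome rrp46 (-0.66) and rrp6 (-0.63) fell and rrp41 (-0.33) was not called. Of the 4 genes set apart only rrp12 fell, so that among the remaining 49 members 43 fell, 1 rose and 5 were not called. ddx27 fell by 1.18 ± 0.14 log2, while drs1 stood at -0.11 ± 0.08 and was not called.

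**Figure D3:**
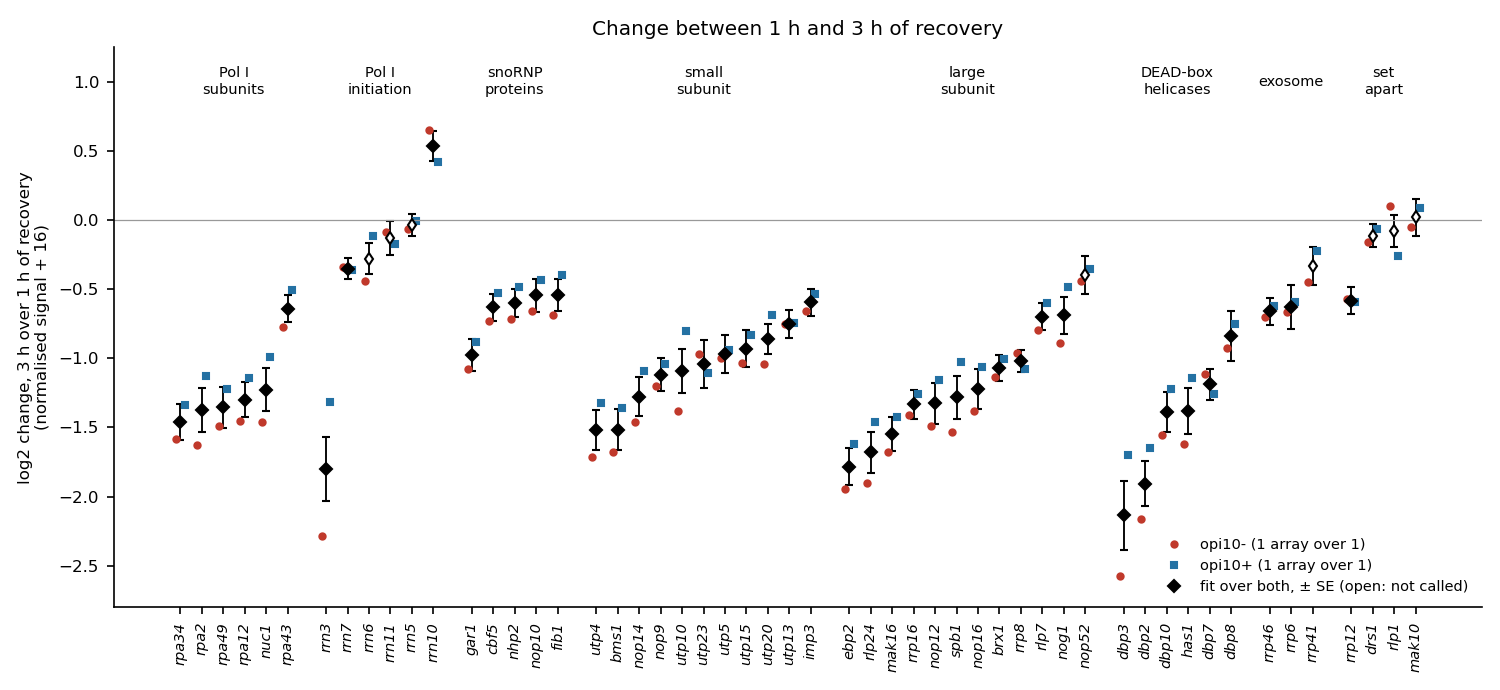
Log2 change of each member at 3 h over 1 h of recovery (vertical axis, normalised signal plus 16), with genes grouped by role along the horizontal axis. Diamonds are the fit over both strains with its standard error, filled where called, and the red circles (opi10-) and blue squares (opi10+) are each strain's own change. Of the 53 members 44 fell, dbp3 most (-2.13), and rrn10 alone rose (0.53).

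The fall at 3 h held on the deposited scale, where 42 members fell, 1 rose and the median was -0.80 log2, while 13.7% of all tested genes fell and 27.3% rose. Without single arrays 38 to 46 members fell. Without either 1 h array, or without the opi10- array at 3 h, rrn10 (adjusted p 0.0585 to 0.0641), rrn7 (0.0596 to 0.0819), fib1 (0.0636 to 0.0755), nop10 (0.0667 to 0.0844) and rrp6 (0.0547 to 0.152) were no longer called, and 0 members rose.

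Other genes of ribosome production were set beside the module in the same step, in which 23.5% of all tested genes fell and 23.4% rose. Among 27 further genes, listed by name, 22 fell and none rose, with a median of -1.05 log2. Not all of them are assembly factors: the list takes in ker1, reb1 and spp27, and dim1 and prp43 have splicing roles. Those not called were reb1 (0.07), spp27 (-0.06), dim1 (0.08), shq1 (-0.14) and tsr3 (-0.003). Of 17 genes for RNA polymerase III subunits and subunits shared with it 16 fell, with a median of -0.73. The 7 subunits found only in RNA polymerase II were mixed, with 2 fallen and 3 risen. The median of the 118 cytosolic ribosomal protein genes was -0.08 log2, with 6 called as fallen and 1 as risen. At 43C 75 of the 118 ribosomal protein genes fell, against 39.8% of all tested genes, and between 43C and 1 h of recovery 81 rose, against 35.1%. In the deposited values 110 fell at 43C, against 73.7% of all tested genes, and 112 rose by 1 h, against 78.6%. The differences between these lists were not tested.

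**Figure D4:**
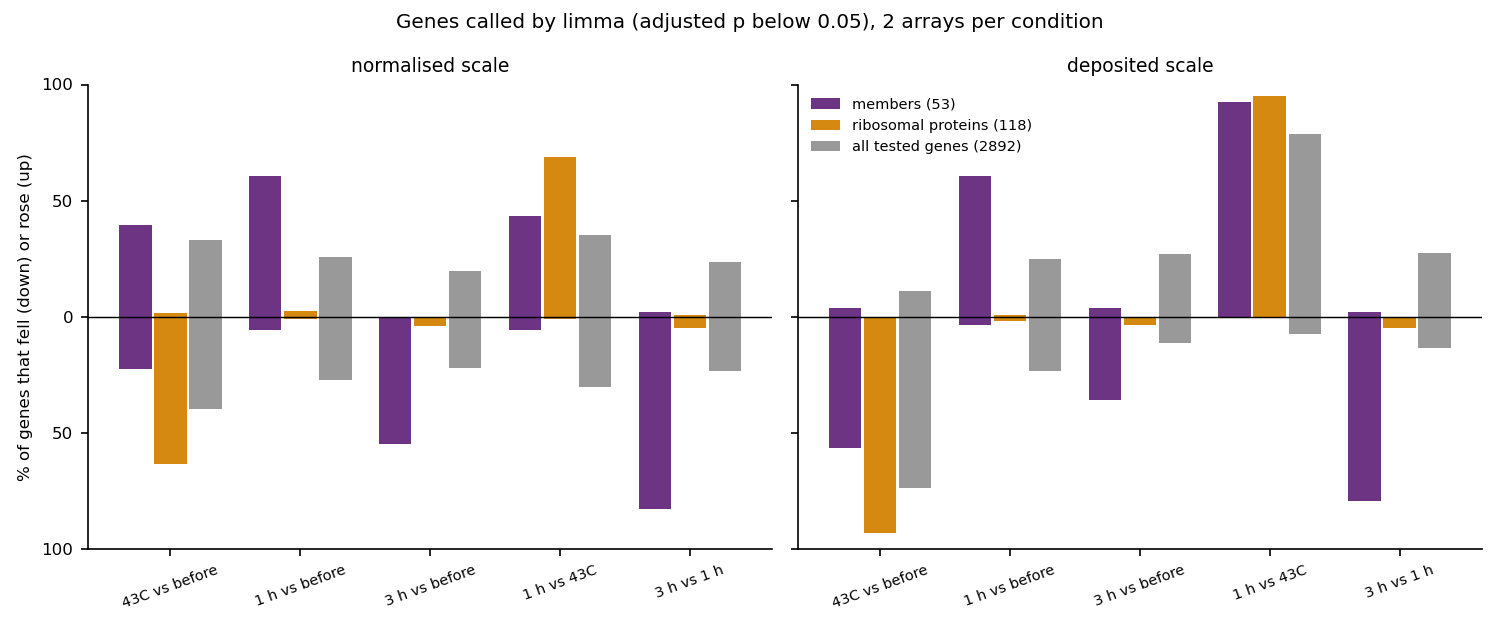
Share of genes that rose (upwards, percent) or fell (downwards, percent) in each of the 5 comparisons, for the 53 members (purple), the 118 cytosolic ribosomal protein genes (orange) and all 2892 tested genes (grey), on the normalised scale (left) and the deposited scale (right). The members' share that fell at 3 h against 1 h is tall on both scales, whereas the bars that involve 43C differ between the scales.

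Against the level before heat, the module was lowered at 3 h of recovery. Of 53 members 29 fell and none rose, while 22.2% of all tested genes fell and 19.7% rose, and the median was -0.47 log2 against -0.03. The other 24 were not called. The largest falls were those of dbp3 (-1.48 ± 0.25 log2), rpa34 (-1.43 ± 0.13), ebp2 (-1.24 ± 0.13) and utp23 (-1.06 ± 0.18), and these 4 were the members with falls of at least 2-fold (1.38% of all tested genes). utp23, a small subunit factor gene, read 885, 922, 667 and 332 in opi10- and 624, 889, 805 and 365 in opi10+, with both 3 h arrays below the other 6.

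By role, 9 of 12 large subunit factors, 6 of 11 small subunit factors and 5 of 6 helicases fell. Only 2 polymerase subunits fell, rpa34 and rpa49 (-0.99 ± 0.15), and nuc1 (-0.41), rpa2 (-0.39), rpa12 (-0.19) and rpa43 (0.05) were not called. In opi10- alone nuc1, rpa2, rpa12 and rpa43 changed by -0.75, -0.72, -0.43 and -0.05 log2. In opi10+ alone they changed by -0.07, -0.06, 0.06 and 0.15 log2, a split that was not tested. rrn3 (-0.80 ± 0.23) and rrn5 (-0.36 ± 0.08) fell among the initiation genes, and gar1 (-0.93), nop10 (-0.47) and fib1 (-0.36) among the snoRNP genes. On the deposited scale 19 members fell and 2 rose (11.4% and 26.8% of all tested genes), the 2 being mak10 and rlp1, and neither rrn3 nor rrn5 was called. When the opi10- array before heat was left out 13 members fell and 1 rose, and when the opi10- array at 3 h was left out 15 fell. The calls of rrn3 (adjusted p = 0.186 and 0.0828), rrn5 (0.0699 and 0.0725), nop10 (0.13 and 0.129) and fib1 (0.249 and 0.264) were lost without those arrays. That of rrn5 was also lost without the opi10+ 3 h array (0.0613), those of rrn3 and fib1 without either 1 h array (0.0555 and 0.084), and that of fib1 without either 43C array (0.0657).

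Over all conditions together no member was called between the strains. In the strain term of the fit, which compares 4 opi10- arrays with 4 opi10+ arrays, 0 of 53 members and 0% of all tested genes were called. At an unadjusted p below 0.05 there was 1 member, rrp46 (0.18 ± 0.07 log2, adjusted p = 0.409), and 317 of all tested genes.

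Within single conditions the strains can be set side by side only as 1 array against 1, with no test. Before heat 44 of 53 members read higher in opi10- than in opi10+, with a median difference of 0.15 log2, while 55.6% of all tested genes read higher (on the deposited scale 36 members and 37.3% of all tested genes). All 11 small subunit factors were among the 44. The largest differences were those of utp23 (0.49 log2), rpa34 (0.48) and rrp6 (0.44), and the lowest were rrn11 (-0.28), rrn6 (-0.16) and rrn10 (-0.14). These last 3 are initiation genes.

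At 43C and at 1 h of recovery the median differences were smaller. At 43C 33 members read higher in opi10-, against 53.7% of all tested genes, and the median difference was 0.06 log2. rrp46 (0.33), rlp1 (0.26) and nop52 (0.25) were highest and rrn3 (-0.24), rrn6 (-0.18) and mak10 (-0.17) lowest. At 1 h of recovery 24 members read higher and 28 lower, with a median of -0.02, and 52.6% of all tested genes read higher. The range was then narrow, from utp23 (-0.26), dbp7 (-0.22) and bms1 (-0.22) up to rrn6 (0.18), rpa34 (0.17) and rrp46 (0.13).

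At 3 h of recovery the members stood lower in opi10-. Of 53 members 47 read lower in opi10- than in opi10+, against 49.1% of all tested genes, and the median difference was -0.23 log2 against 0.002. On the deposited scale 51 read lower, against 64.1% of all tested genes. The lowest was rrn3, at 541 in opi10- and 1153 in opi10+ (-1.07 log2), the third lowest difference among all tested genes. dbp3, at 428 in opi10- and 787 in opi10+, followed with -0.85, and utp10 with -0.57. The 3 highest were rlp1 (0.27), rrn10 (0.24) and rrp46 (0.05).

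**Figure D5:**
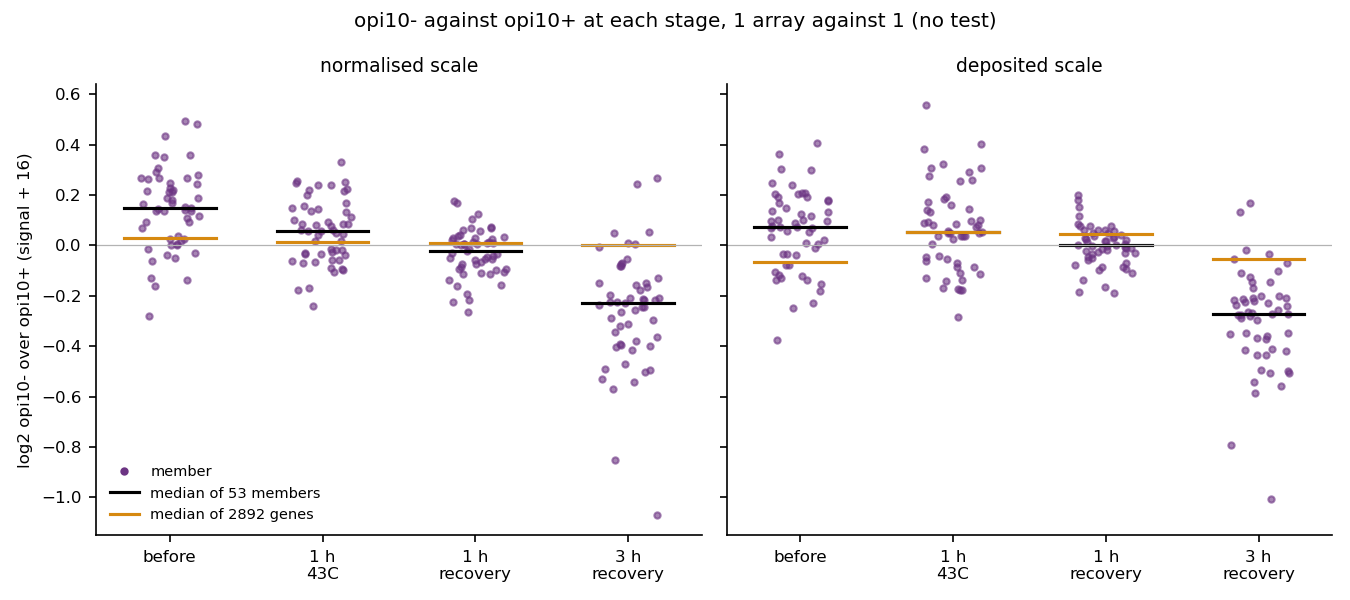
Log2 of opi10- over opi10+ (vertical axis, signal plus 16) for each member (purple points) at the 4 stages (horizontal axis), on the normalised scale (left) and the deposited scale (right), with 1 array against 1 at each stage and no test. Black lines are medians of the 53 members and orange lines medians of the 2892 tested genes. The members' median is 0.15 before heat and -0.23 at 3 h on the normalised scale.

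The 2 strains' responses were set against each other in the same way. From 1 h to 3 h of recovery the change was lower in opi10- for 45 of 53 members, against 52.8% of all tested genes, and the members' median change was -1.03 in opi10- and -0.88 in opi10+. Counted from the level before heat, the change to 3 h was lower in opi10- for 47 members, against 53% of all tested genes, with medians of -0.68 in opi10- and -0.28 in opi10+. The difference of dbp3 over that span was -2.04 log2 in opi10- and -0.92 log2 in opi10+, and the gap of -1.12 between the strains was the lowest of all tested genes. For rrn3 the values were -1.27 in opi10- and -0.33 in opi10+. Each of these is a difference between 4 single arrays, and the second includes the members' higher signals in opi10- before heat. Both use the same 3 h arrays as the strain comparison at 3 h, so these counts are not independent.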

How the data were processed

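RNA from 8 samples of S. pombe (2 strains, 4 conditions) was hybridised to Affymetrix yeast arrays. The authors deposited intensity values on a linear scale for 10928 probe sets. The method by which these intensity values were summarised and scaled was not given in the sources used here. Gene names came from the platform annotation, updated through gene identifiers to the ASM294v3 gene table. Coordinates are left out because the array table states no build.

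Members were chosen by annotated symbol, and the members, roles and gene lists were chosen with earlier results of these data known. Values were transformed as log2(value + 16) and quantile normalised over S. pombe probe sets. A gene was tested when its mean signal exceeded the 75th percentile of S. cerevisiae probe sets (6.04), which kept 2892 genes. limma 3.58.1 in R 4.3.3 (lmFit, eBayes) fitted strain plus condition with 3 residual degrees of freedom, and p-values were Benjamini-Hochberg adjusted over all tested genes in each of 5 contrasts. The fit was tested on simulated data. The number of arrays limits the precision.

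The genes named are every polymerase I and snoRNP member, the 4 highest and 4 lowest called members of each contrast that moved one way in both strains, the 3 highest and lowest of each strain difference, and members that make up counts of 5 or fewer. dbp2, utp10, nop52, utp15, utp4, imp3, rpa49 and others outside a given list, the genes set apart and ddx27 were named after their values were seen. The settings tried beside this were centring on the array median, the scale as deposited, pseudocounts of 1 and 64, other filters, no strain term and leaving out each array.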

Additional observations from a re-analysis of the deposited data

Results flagged for a closer look

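1 result was picked out because the strains went in opposite directions. utp23, a small subunit factor gene, differed at 1 h of recovery from before heat by -0.40 log2 in opi10- and by 0.36 log2 in opi10+, a difference of -0.76. Each value rests on 1 array against 1, and the difference was not tested. The opi10- signal before heat, 885 against 624 in opi10+, was the highest difference between the strains among the members before heat.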

How the results depend on the processing

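The falls at 3 h against 1 h of recovery (44 members, 42 on the deposited scale, 44 with each array centred on its median) kept their count within 1.5 times under every alternative run, and the rises at 1 h against before did so except where an array was left out. On the deposited scale 2 members rose and 30 fell at 43C, with a median of -0.47 log2, 2 rose and 19 fell at 3 h against before, 49 rose and 0 fell at 1 h against 43C with a median of 1.03, the median at 3 h against 1 h was -0.80, and 2 members read higher in opi10- at 3 h. There, among the called rises at 43C, mak10 (-0.0040), dbp10 (-0.16), nuc1 (-0.12), spb1 (-0.012) and brx1 (-0.0076) turned negative. So did mak16 (-0.16), nog1 (-0.26), utp20 (-0.26), nop9 (-0.28) and utp15 (-0.42, called as fallen). Of the other called changes, rrn5 (0.079) turned at 3 h against before and mak10 (0.43) at 1 h against 43C. With centring on the median, 28 rose and 13 fell at 43C with a median of 0.44, 1 rose at 3 h against before, 16 rose and 9 fell at 1 h against 43C with a median of 0.054, cbf5 turned there (-0.073), 12 members read higher in opi10- at 1 h, and the median difference of the strains' responses at 43C was -0.22. The cause was not tested. Shares over all tested genes are not given here for centring on the median, so its counts cannot be called particular to the members. Pseudocounts, filters, all probe sets, robust moderation, no strain term and leaving out the 4 genes set apart moved no count beyond 1.5 times.

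Without single arrays, 11 to 26 members rose and 10 to 13 fell at 43C (median 0.10 to 0.43), 17 to 35 rose and 1 to 3 fell at 1 h against before (0.41 to 0.59), 0 to 1 rose and 13 to 32 fell at 3 h against before (-0.63 to -0.33), 17 to 32 rose and 1 to 5 fell at 1 h against 43C (0.25 to 0.40), and 0 to 1 rose and 38 to 46 fell at 3 h against 1 h (-1.12 to -0.82). Such fits keep 2 residual degrees of freedom and assume that a lone array varies like the rest. A call can go in them with its estimate unchanged, as for fib1 at 3 h against before (-0.36 log2) without either 43C array. Shares over all tested genes are not given here for fits without an array. Changes in these counts, and in those given further up, therefore cannot be called particular to the members. The strain term of the fit already matches arrays of 1 strain across conditions, and each group has 1 array. The promoter motif alternative was not run, since no sequence table was used here.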

Other observations

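Genes from the lists set beside the module, which the symbols did not pick, gave the following values, chosen after they were seen. At 3 h against 1 h of recovery rrs1, a large subunit factor gene, fell by 1.71 log2, ppp1, the pescadillo gene, by 1.63 and sda1 by 1.56, while tsr3 (-0.003) and dim1 (0.08) were not called. rpc34, a subunit gene of RNA polymerase III, rose by 1.51 log2 at 1 h of recovery against before. urb2 fell by 0.50 log2 at 43C on the normalised scale (deposited change not given here) and rose by 1.09 at 1 h of recovery against before.

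The array also carries control probe sets for S. pombe ribosomal RNA, which no comparison used. The deposited 5.8S signal was 6281, 6501, 3950 and 4553 in opi10- and 5684, 5777, 3355 and 3841 in opi10+ (before, 43C, 1 h and 3 h of recovery). The 28S middle probe set read 1709, 1160, 700 and 667 in opi10- and 1845, 2046, 1023 and 1160 in opi10+, and the 28S 5' probe set 4085, 2688, 2431 and 2569 in opi10- and 4297, 4546, 2675 and 3014 in opi10+. In each strain the 5.8S, 28S middle and 28S 5' probe sets read lower at both recovery stages than before heat. At 43C the 28S middle and 5' probe sets were lower than before heat in opi10- and higher in opi10+. The 28S 3' probe set read higher than before heat at every later stage, at 8454, 10260, 10075 and 8960 in opi10- and 9209, 10702, 9920 and 9461 in opi10+. The 3 probe sets for 18S lay between 3647 and 7992 in opi10- and between 3834 and 7860 in opi10+ over the 4 stages. Of these only the middle one was lowest at 43C in both strains, at 6925, 3647, 4678 and 5139 in opi10- and 6430, 3834, 4181 and 4732 in opi10+.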
